A study of Mus musculus with 2 samples.

Results

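Among the transcription factors that steer blood progenitors into granulocytes, monocytes and dendritic cells, 7 genes were followed here: the CCAAT/enhancer binding protein genes Cebpa, Cebpb, Cebpd and Cebpe, the PU.1 gene Spi1, the repressor gene Gfi1 and the interferon regulatory factor gene Irf4. They were picked by name from the 22180 genes measured. Each had exactly 1 probe set of its own, so all 7 were measured and no choice between probe sets arose.

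The values came from 2 whole-transcript arrays of spleen cells of Fx-/- mice, which lack an enzyme that makes GDP-fucose from mannose and depend on fucose given to them. On the first array the mice had been fucose-treated (on-fucose), and on the second they had no fucose treatment (off-fucose). Both arrays share the Fx-/- genotype and a wild type was not analysed here, so the comparison is of fucose supply within the mutant. Cells were labelled cDC1, conventional type 1 dendritic cells, after beads had removed cells with B220 or CD11b and then collected cells with CD11c. The labels used here give no age or sex of the mice, nor how many were pooled. With 1 array per group no value has a replicate check, and every statement below compares these arrays only.

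C/EBP proteins are leucine zipper factors that bind DNA as pairs. In the marrow, C/EBPα is needed to enter the granulocyte path and C/EBPε to complete granule formation, whereas C/EBPβ is known for emergency granulopoiesis and C/EBPδ for inflammatory responses. PU.1, an ETS-family factor, sets up the enhancers of myeloid and dendritic cells, GFI1 represses monocyte genes in favour of granulocytes, and IRF4 acts with PU.1 or BATF in type 2 dendritic cells, plasma cells and activated T cells.

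No member differed by 2-fold between the arrays. At least 2-fold higher values off fucose were found for 0 of 7 members, against 1.2% of all genes measured, and at least 2-fold lower values for 0 of 7, against 0.257%. Spi1 and Cebpa were at least 1.5-fold higher, 2 of 7 members against 3.21% of all genes, and no member was 1.5-fold lower, against 2.28%. The log2 differences, off-fucose minus on-fucose throughout, were positive in 6 members and negative in Gfi1, with a median of 0.22, beside -0.00081 over all genes. Of all genes, 47.6% had a positive difference. All 7 members were dim, with intensities between 5.92 and 17.6 where each array's median probe set had about 7 (6.99 on fucose and 7.04 off fucose). Differences may be understated at such levels, which was not tested. In a setting chosen after seeing the data, the 5th percentile of each array was subtracted as background. Spi1 (1.67) and Cebpa (1.21) were then over 2-fold higher and Gfi1 (-1.73) over 2-fold lower, beside 4.95% of all genes over 2-fold higher and 3.8% lower. The subtracted intensity was 4.83 on fucose and 4.91 off fucose, close to the 6.09 of Gfi1 off fucose.

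**Figure D1:**
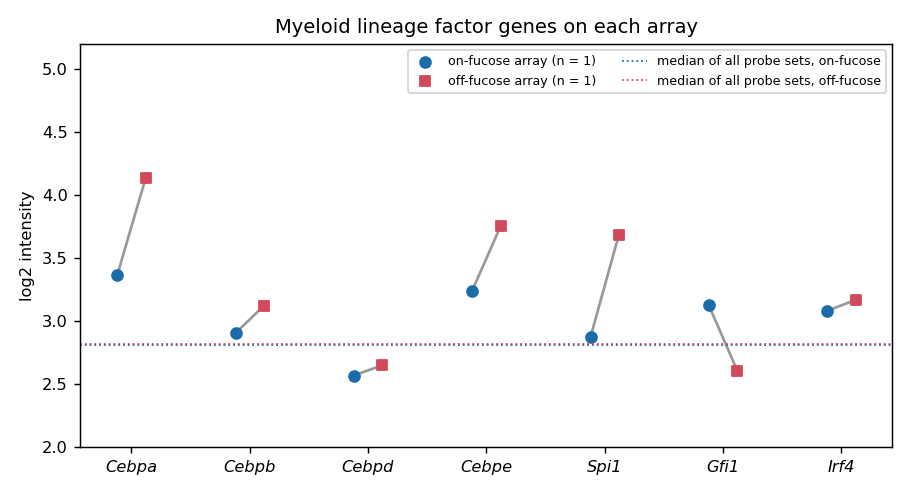
Log2 intensity of each factor gene on the on-fucose array (circles) and the off-fucose array (squares), 1 array each and so without error bars; dotted lines mark the median of all probe sets of each array. Cebpa, Cebpe and Spi1 lie higher on the off-fucose array, from 3.69 to 4.13, and Gfi1 lies below the median line there, at 2.61.

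The arrays as a whole correspond in overall scale, with medians of 2.81 and 2.82 in log2 intensity. T cell genes were bright on both arrays (10 measured, list median 10.10 on fucose and 9.66 off fucose). The 12 measured genes of the cDC1 list had medians of 4.43 and 5.74. Of these, 4 were at least 2-fold higher off fucose and none was 2-fold lower, while 9 had a positive and 3 a negative difference. Within that list Naaa had 5.97 and 8.36, and Ly75 6.80 and 5.86. The defining receptor gene Xcr1, the dimmest of the list on fucose, had 2.90 and 3.43. The X-inactivation RNA Xist had 8.26 on fucose and 2.82 off fucose and the Y-linked Uty 2.14 and 5.26, so fucose supply and these sex-linked genes separate the arrays alike and cannot be told apart. As in any mixed sample, fewer cells of a type and less RNA per cell cannot be told apart either.

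Cebpa, which encodes the C/EBP factor that commits progenitors to granulocytes and monocytes, had an intensity of 10.3 on fucose and 17.6 off fucose, or 3.36 and 4.13 in log2. The off-fucose array was the higher one, by 0.77 or 1.71-fold. On fucose 66.4% of all probe sets lay below this value, and off fucose 75.1%. Genes were sorted by mean level into 20 bins of equal size. Among the 1109 genes in its bin 88 (7.94%) were at least this much higher off fucose, with a robust SD of the bin's differences of 0.36. This spread is between genes and does not replace replicates.

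C/EBPα is known to act on its own promoter, so the 250 bases before the Cebpa start site are shown (RefSeq, GRCm38.p6, chr7:35119043-35119292, plus strand), with the C/EBP core TTGCG in capitals where it was found on either strand.

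Cebpa: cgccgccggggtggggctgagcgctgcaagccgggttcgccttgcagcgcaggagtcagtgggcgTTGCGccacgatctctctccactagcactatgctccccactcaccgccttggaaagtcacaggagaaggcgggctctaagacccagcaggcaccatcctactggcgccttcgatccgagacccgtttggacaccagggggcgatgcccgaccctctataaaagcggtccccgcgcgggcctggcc

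The single match lies 185 to 181 bases before the start. Of all 32851 RefSeq windows of this length, 14.5% hold at least 1 match, so it is a description of the sequence and not evidence of binding. The palindrome TTGCNNAA, found in 9.56% of windows, was not in this one. Of the 7 members, 4 (Cebpa, Cebpb, Gfi1 and Irf4) were in the promoter table, with 5 windows.

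Cebpe, needed for the late granule proteins of neutrophils and eosinophils, had 9.45 on fucose and 13.5 off fucose, or 3.24 and 3.75 in log2. It was higher off fucose by 0.51 or 1.43-fold, and 120 of 1109 genes of like level (10.8%) were at least as far apart in that direction. Cebpb, a factor of stress granulopoiesis and macrophage activation, had 7.49 and 8.70, or 2.90 and 3.12 in log2. Its difference of 0.22 was smaller than the robust SD of its bin (0.24). Cebpd, an acute-phase factor, had 5.92 and 6.27, or 2.57 and 2.65 in log2, below the median of all probe sets on both arrays. Its difference of 0.08 was within the robust SD of 0.17. The order of the 4 C/EBP genes by difference was thus Cebpa, Cebpe, Cebpb and Cebpd, and with 1 array per group no 2 genes in it can be told apart. Levels are not compared between these genes, since probe sets respond differently.

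Spi1, the PU.1 gene, had an intensity of 7.32 on fucose, near the array median, and 12.9 off fucose, or 2.87 and 3.69 in log2. Its difference of 0.81 (1.76-fold higher off fucose) was the largest of the 7 members, at rank 397 of the 22180 genes counted from the highest, with Cebpa at rank 434 and Cebpe at rank 887. Among genes of like level, 58 of 1109 (5.23%) were at least as far apart in that direction, with a robust SD of 0.34.

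Gfi1, a zinc finger repressor that favours granulocytes over monocytes and is also used by lymphocytes and stem cells, was the only member with the lower value off fucose. It had 8.72 on fucose and 6.09 off fucose, or 3.13 and 2.61 in log2, a difference of -0.52 (1.43-fold lower). It lay at rank 729 from the lowest of all genes, and 19 of the 1109 genes of like level (1.71%) differed at least as far in that direction, with a robust SD of 0.22. Off fucose 32.4% of probe sets lay below it, against 61.8% on fucose. Gfi1 and Cebpd, with mean log2 intensities of 2.87 and 2.61, were below the median of all genes (2.88), used here as an expression filter, and the other 5 members were above it.

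GFI1 is known to repress its own gene, so the 250 bases before the upstream of 2 listed Gfi1 starts are shown (RefSeq, GRCm38.p6, chr5:107725806-107726055, minus strand), with the core AATC of GFI1 sites, on either strand, in capitals.

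Gfi1: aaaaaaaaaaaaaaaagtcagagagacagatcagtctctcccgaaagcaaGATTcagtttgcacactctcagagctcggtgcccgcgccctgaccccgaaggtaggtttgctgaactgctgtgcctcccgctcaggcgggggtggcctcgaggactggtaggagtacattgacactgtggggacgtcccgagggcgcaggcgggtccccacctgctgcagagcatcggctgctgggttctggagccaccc

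The match lies 200 to 197 bases before the start and reads GATT, so the core is on the other strand. This short core is in 69% of all windows. The same window held the C/EBP palindrome as TTGCTGAA, 143 to 136 bases before the start, and neither motif was in the window of the other start. The PU.1 core GAGGAA, present in 23.3% of windows, was found among the members in the Irf4 window alone.

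Irf4, the factor of type 2 dendritic cells and plasma cells, had 8.46 on fucose and 8.99 off fucose, or 3.08 and 3.17 in log2. The difference of 0.09 was well within the robust SD of 0.29 among genes of its level. Of these 1109 genes, 448 (40.4%) were at least as far apart in that direction.

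**Figure D2:**
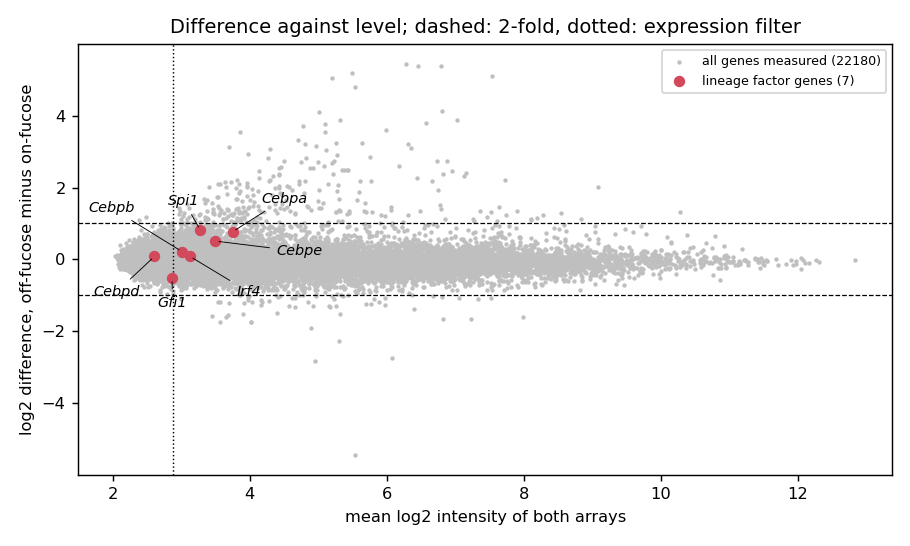
Log2 difference (off-fucose minus on-fucose) against mean log2 intensity for all 22180 genes (grey) and the 7 factor genes (red); dashed lines mark 2-fold and the dotted line the expression filter at 2.88. The factor genes all lie at the dim left side and inside the 2-fold lines, from -0.52 in Gfi1 to 0.81 in Spi1.

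Among 15 other C/EBP and related leucine zipper genes measured, none was 2-fold apart, 12 were positive and the median was 0.33. The largest were Batf3, which type 1 dendritic cells require (4.58 and 5.49), the AP-1 subunit Junb (9.05 and 9.89) and the small Maf gene Mafg (3.40 and 4.21). Cebpg, a further C/EBP gene chosen after its value was seen, had 5.53 on fucose and 4.99 off fucose (-0.54). Among 6 other interferon regulatory factors, Irf8, a factor of type 1 dendritic cells and monocytes, had 4.18 on fucose and 6.68 off fucose (2.50), and a further probe set of it 2.81 and 3.02. The other 5 were negative within 2-fold, with -0.56 in Irf2, an antagonist of IRF1, -0.56 in Irf9, part of the interferon-activated ISGF3 complex, and -0.44 in Irf7, which drives type I interferon genes.

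None of the 10 other ETS factors measured was 2-fold apart. Ets2 had 5.23 and 5.72, Elf4 9.19 and 8.74, and Spib, the closest relative of Spi1 and a factor of plasmacytoid dendritic cells and B cells, a difference of 0.37. Their median of -0.03 turned to 0.21 once differences were taken relative to the median of the T cell genes.

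Gfi1b, the paralogue of Gfi1 that serves red cells and megakaryocytes, had 3.65 on fucose and 6.87 off fucose (3.23), opposite in sign to Gfi1. It was 1 of 5 among 42 other lineage factors that were at least 2-fold higher, and none was 2-fold lower. The others were Klf1, the erythroid factor (3.56 and 5.57), Klf4, which acts below PU.1 in monocytes (2.81 and 4.79), the progenitor factor Lyl1 (2.90 and 4.26) and Gata2, of stem cells, mast cells and basophils (3.50 and 4.61). Next in size were Nfe2 (0.88) of platelets and red cells, Bcl11a (0.82), whose second probe set had 0.17, and Id3 (-0.80), an inhibitor of E proteins in lymphocytes. The median of the 42 was 0.03. The 8 genes of the GFI1 corepressor complexes lay between -0.37 and 0.21, with the deacetylases Hdac1 at -0.37 and Hdac3 at -0.31 and the scaffold Rcor1 at 0.21. Their median of -0.06 became 0.18 relative to the T cell genes.

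Several receptors for the growth factors that act with these proteins were higher off fucose. Of 19 cytokine and receptor genes measured, 5 were at least 2-fold higher and none lower, 12 had a positive and 7 a negative difference (17 and 2 relative to the T cell genes), and the median was 0.50, beside -0.00081 over all genes. The lowest difference was -0.40. The GM-CSF receptor chain Csf2ra had 3.17 on fucose and 4.62 off fucose (1.45), and Csf2rb2, the IL-3 receptor beta chain, 4.29 and 5.73 (1.43). Csf1r, the M-CSF receptor and a classical PU.1 target, had 2.84 and 4.26 (1.42). Csf3r, the G-CSF receptor and a C/EBPα target, had 3.50 and 4.82 (1.33), and the stem cell factor receptor Kit 5.72 and 6.75 (1.03). Next in size were Flt3 (0.94), a receptor of dendritic cell and lymphoid progenitors, the ligand gene Csf1 (0.82) and the common beta chain Csf2rb (0.74). Each of these off-fucose values was the higher one.

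Of the 16 genes listed as C/EBP targets in granulocytes, all measured, 10 were at least 2-fold higher off fucose, 6 were within 2-fold and none was 2-fold lower. The median was 1.81, and the differences ran from -0.23 in Il6ra, an IL-6 receptor chain, to 5.38. Early, azurophil-type genes led, with Elane at 4.11 and 9.48 (5.38), Ctsg at 3.77 and 9.14 (5.37), Prtn3 at 2.90 and 8.08 (5.18), Mpo at 4.98 and 10.07 (5.09) and the progenitor gene Ms4a3 at 2.68 and 7.73 (5.05). The eosinophil granule gene Prg2 (4.80) and the lysozyme gene Lyz2 (3.03) followed. Of the 5 measured genes of the eosinophil marker list, Prg2 alone was 2-fold apart, and the list median was 0.15. Genes of later granules, which C/EBPε is known to drive, had smaller differences. Among them Ngp had 2.90 and 5.01 (2.11), the cathelicidin gene Camp 2.79 and 4.29, the siderophore-binding lipocalin gene Lcn2 2.83 and 3.64 (0.81) and the lactoferrin gene Ltf 3.10 and 3.42 (0.32). The leukotriene B4 receptor gene Ltb4r1 had 3.40 and 3.91 (0.51).

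Of 15 measured genes listed as PU.1 targets, 9 were at least 2-fold higher off fucose, 6 were within 2-fold and none was 2-fold lower, with a median of 1.29. The phagocyte oxidase subunit Cybb had 3.66 on fucose and 6.19 off fucose (2.54). The signalling adaptors Tyrobp and Fcer1g, which NK cells and others also use, had 5.72 and 8.19 (2.47) and 5.31 and 7.58 (2.27). The Fc receptor gene Fcgr3 differed by 1.46, the inflammatory cytokine gene Il1b by 1.29 and the kinase gene Btk by 1.13. Itgam, which encodes the CD11b that the first selection removed, had 3.07 and 3.66 (0.59), and the oxidase subunits Ncf1 and Ncf4 had 0.21 and 0.12. Csf3r stands in the lists of receptors, C/EBP targets and PU.1 targets, and Csf1r and Csf2ra in those of receptors and PU.1 targets, so these counts overlap.

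Genes tied to IRF4 showed no such difference. None of 11 measured was 2-fold apart, 4 were positive and 7 negative, and the median of -0.13 became 0.10 relative to the T cell genes. The largest were Tbx21, the T-bet gene, at 5.32 and 4.66 (-0.66), the chemokine gene Ccl22 at 3.66 and 3.20 (-0.46) and Batf, an IRF4 partner, at 5.43 and 5.06 (-0.37).

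**Figure D3:**
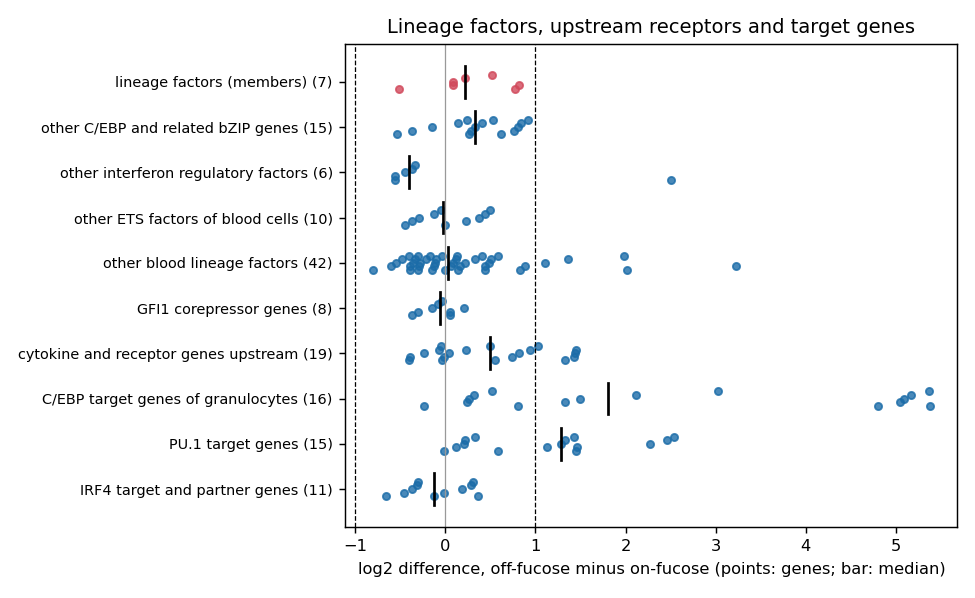
Log2 difference (off-fucose minus on-fucose) of every measured gene in the factor, receptor and target lists, with 1 point per gene, a black bar for the list median and dashed lines at 2-fold. The factor genes (red) lie between -0.52 and 0.81, whereas 10 of 16 C/EBP targets and 9 of 15 PU.1 targets lie beyond 2-fold higher.

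Markers of the cells that normally carry these factors differed between the arrays beside the factors themselves. The neutrophil and granulocyte precursor list had 10 of 16 genes at least 2-fold higher off fucose, and its summed intensity was 156.5 on fucose and 3056 off fucose. It shares 12 of its 16 genes with the 16 C/EBP targets, so both counts largely describe the same genes. The monocyte list (5 of 10 genes 2-fold higher) had sums of 1464 and 2276, most of it from Ly6c2, and its other 9 genes summed to 75.7 and 381.2. It shares 4 genes with the PU.1 targets. The corresponding sums were 178.8 and 1246 for basophils and mast cells (6 of 10), and 230.4 and 371.3 for blood progenitors (3 of 9). The erythroid list had 93.1 and 534.7 (7 of 9). For the usual carriers of Irf4, plasma cells had sums of 161.1 and 180.8 (0 of 7 genes 2-fold apart). T cells had 12126 and 10011 (0 of 10). Type 2 dendritic cells had 441.6 and 590.1 (3 of 9 higher), and 65.8 and 133.7 without the bright Notch2. Their list includes Irf4 itself. Of its 3 higher genes, Cd209a has a second probe set with 3.97 on fucose and 3.84 off fucose. With the mean of probe sets, 2 of 9 were at least 2-fold higher. The part of all these cell types in the values of the 7 factor genes was not tested. No marker is listed at 0 on either array. The lowest intensity of any probe set was 2.74 on fucose and 3.15 off fucose, so this does not show detection. The late neutrophil markers Mmp8 (2.54 and 2.78) and Ly6g (2.23 and 2.93) stayed near or below the array medians. In the neutrophil and granulocyte precursor list, S100a8 had 2.08 and 5.62 and S100a9 2.57 and 4.72. All 16 of its genes had a positive difference.

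**Figure D4:**
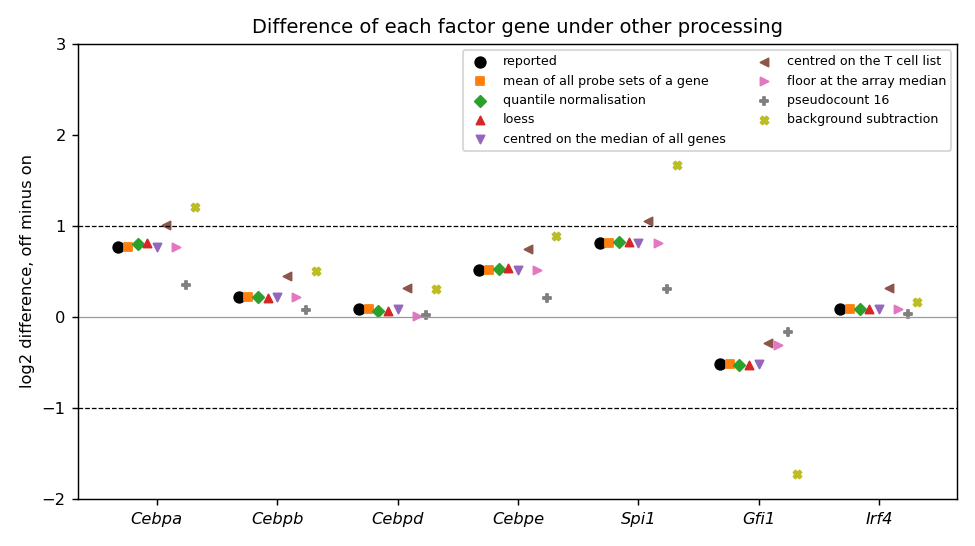
Log2 difference of each factor gene as reported (black circles) and under 8 other processing settings, with dashed lines at 2-fold. All 7 genes keep their sign under the 8 settings, several of which cannot or can hardly change it. The 2-fold lines are passed by Spi1 and Cebpa relative to the T cell genes and by Spi1, Cebpa and Gfi1 with background subtraction.

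The sign of every member's difference held under all 8 settings, but several of these could not or could hardly change it. The mean of probe sets cannot change a gene with 1 probe set, and adding 16 keeps the order of 2 values. Centring on all genes moved each difference by only 0.00081. Centring on the T cell genes raised every difference, so among the members only Gfi1 could have changed sign there. Spi1 ranged from 0.31 to 1.67, Cebpa from 0.35 to 1.21 and Cebpe from 0.21 to 0.89, the lowest value of each coming from adding 16 to the intensities and the highest from background subtraction. Gfi1 ranged from -1.73 to -0.16. Cebpb ranged from 0.07 to 0.51, Cebpd from 0.01 to 0.32 and Irf4 from 0.03 to 0.32. The 0.01 of Cebpd came from the floor, which replaced both of its values by the array medians. It is the gap between those medians and holds no signal of Cebpd. Taking differences relative to the T cell genes, which moved the median of all genes by 0.23, put Spi1 at 1.05 and Cebpa at 1.01, so that 2 of 7 members were over 2-fold higher, against 1.98% of all genes, and 0 of 7 lower, against 0.126%.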

How the data were processed

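Values were taken from the deposited table of 2 arrays, which holds 1 linear intensity for each of 41345 probe sets and array, summarised with RMA by the authors, as the submitters' processing notes record. RMA settings and the genome build are not given in the sources used here, and the labels give 9 ng as the RNA input. Log2 was taken of each intensity. Of the probe sets, 23521 carry 1 platform gene symbol and were used. For a gene with several, the probe set with the highest mean of both arrays stood for it. Samples were grouped by the treatment label, with 1 array per group, so no test, error or p-value exists and the number of arrays limits the precision. The calls are of genes at least 2-fold apart. The alternatives were the mean of probe sets, quantile normalisation, loess (span 0.3), centring on all genes or on the T cell marker list, a floor at the array median, a pseudocount of 16, the expression filter, thresholds of 1.5-fold and 3-fold, and background subtraction. Genes named outside the members are those of 9 fixed lists at least 2-fold apart and the 3 next in size past the filter, and the same 3 per list for 14 marker lists, of which some are named. Xist, Uty, Xcr1, Ly75, Cebpg, Il6ra, Ly6c2, Notch2, Mmp8, Ly6g, S100a8 and S100a9 were named outside that rule. The members and lists were chosen with earlier results of these data known. Python 3.11.15, pandas 2.3.3 and statsmodels 0.14.6 were used.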

Additional observations from a re-analysis of the deposited data

How the results depend on the processing

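No paired analysis was possible because there was a single array per group, which also means that leaving out an array gives no value. The count of members at least 2-fold higher (0) was 2 relative to the T cell genes, 2 with background subtraction and 2 at a threshold of 1.5-fold, and 0 under quantile normalisation, loess, centring on all genes, the mean of probe sets, the floor, the pseudocount of 16, the expression filter and 3-fold. The count at least 2-fold lower (0) was 1 with background subtraction. The median difference of the members (0.22) was 0.45 relative to the T cell genes, which adds 1 value to every difference, 0.51 with background subtraction and 0.51 over the 5 members past the expression filter, which leaves out Gfi1 and Cebpd. That filter takes both arrays' mean, so a member can pass through its higher array. Background subtraction was chosen after seeing the data. Low signal over background may limit all 7 members, which was not tested.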
